A study of Macaca mulatta with 64 samples.

Results

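The comparison described here set the CA1 field of the hippocampus of 10- and 20-yr-old rhesus macaques against that of 1- and 4-yr-old animals, by CAGE-seq. The CA1 libraries came from 1-, 4-, 10- and 20-yr-old females and males, 1 library for each age and sex, so that 4 older and 4 younger libraries were compared. All libraries came from 1 species, and the labels name no allele or agent for either group. TPM was summed over the tag clusters (TCs) of each gene, and a gene was compared when it had at least 1 TPM in 4 or more of the 8 libraries. This held for 5376 genes of the 11365 listed in any CA1 library and of the 13269 listed in the 64 libraries of 8 brain regions. In RNA-seq made from these same samples, the study describes a library as made from a pair of animals matched in age and sex, and all regions as taken from each specimen. No age and sex had a second CA1 library, so that p-values measure the spread between these libraries, and age cannot be told apart from any other difference between the animals.

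CA1 is the output field of the hippocampus, a band of pyramidal neurons that receive glutamatergic input from CA3 and from the entorhinal cortex and that are needed for memory of places and events. In CAGE-seq the capped 5′ end of an RNA is tagged and sequenced, and a cluster of such ends marks where transcription of a gene may start. A difference in bulk tissue can come from fewer cells of a type or from less RNA per cell, and these cannot be told apart here.

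Coordinates are those of the MMUL 1.0 build, as given with the values. Values of a gene are given in a fixed order throughout: the younger libraries as 1-yr-old female, 1-yr-old male, 4-yr-old female and 4-yr-old male, and the older ones as 10-yr-old female, 10-yr-old male, 20-yr-old female and 20-yr-old male. No value above 0 was below 1 TPM, and a gene given as 0 lacked any TC that reached 1 TPM, which is not the same as no tag. From the steps between low values, the libraries held about 6094000, 6089000, 5715000 and 5391000 tags in the younger group and 5497000, 5333000, 5668000 and 3133000 in the older group, and the smallest value in a library stood for 4 to 7 tags.

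The library of the 20-yr-old female stood apart from the other 7. It listed 8143 genes and 23670 TCs, where the other older libraries listed 3805 to 4332 genes and the younger ones 5383 to 6386. Of the genes compared, 5.60% were at 0 in it, against 39.0%, 33.2% and 31.8% in the other older libraries and 19.4%, 23.0%, 19.8% and 13.1% in the younger ones. Tags within 500 nt of annotated starts held 52.4% ± 3.48 (SD, n = 4) of the listed TPM in the older and 53.4% ± 2.05 (n = 4) in the younger libraries. With all 8 libraries no test of 8 such measures passed (exact permutation test of the difference of means, two-sided, p = 0.34 to 1, adjusted p = 1; the smallest p that 4 against 4 libraries allow is 0.0286). Without the 20-yr-old female the difference in genes listed, older minus younger, went from -590 to -1588. The older and younger libraries then no longer overlapped in genes listed, TCs listed, the share of genes with over 1 TC or the summed listed TPM. Each had an exact permutation p of 0.0571, the smallest that 3 against 4 libraries allow (adjusted p = 0.114). This library was left out because of its own genes and TCs listed, so these p-values give no test of age. Because it stood apart, the counts over all genes, the medians of gene lists and the comparisons with other regions are also given without the 20-yr-old female, and single genes by their value in every library.

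**Figure D1:**
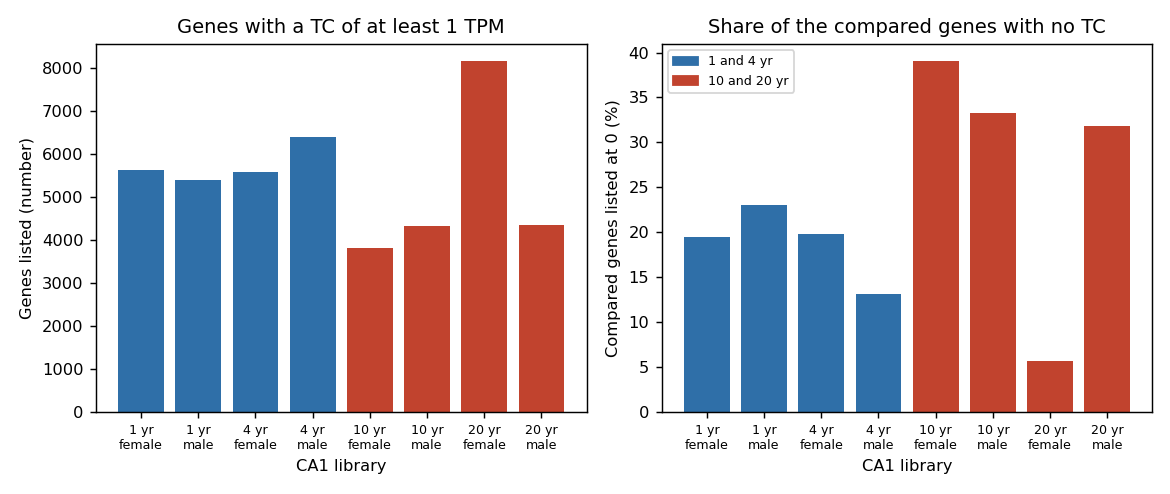
Genes listed in each CA1 library (bars, left) and the percentage of the 5376 compared genes listed at 0 (bars, right), with the 4 younger libraries beside the 4 older ones. The library of the 20-yr-old female lists 8143 genes and has 5.60% of the compared genes at 0, while the other 3 older libraries list the fewest genes and have the most at 0.

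CA1 identity was checked on its markers. NEUROD6, a transcription factor of hippocampal and neocortical pyramidal neurons, was listed in all 8 CA1 libraries with a mean of 279.9 TPM ± 161 (SD, n = 8), and in 3 of 8 libraries of the dentate gyrus (DG) with a mean of 55.9 TPM. GRIA1, which encodes an AMPA receptor subunit, had means of 159 TPM in CA1 and 45.1 TPM in DG. Of the markers of dentate granule cells, CALB1, a calcium buffer, had a mean of 39.98 TPM in CA1 and 300.6 TPM in DG, and C1QL2, a secreted synaptic protein, 30.0 and 101 TPM. Other granule cell markers ran the opposite way. NEUROD1, a transcription factor of granule neurons, had means of 48.9 TPM in CA1 and 37.6 TPM in DG, and SEMA5A, DOCK10, STXBP6, PENK and MAML2 had means of 1.53 to 5.67 TPM in CA1 and of 0 to 0.86 TPM in DG. The CA1 marker MPPED1 was in turn higher in DG, at 7.56 against 1.02 TPM, from a single DG library. HPCA, the calcium sensor hippocalcin, was lower in CA1 (573 TPM) than in DG (3024 TPM). The granule cell factor PROX1 was listed in 1 CA1 library and in no DG library, and of the CA1 markers WFS1 and FIBCD1 were listed in 4 and 3 of the 8 CA1 libraries, so that the markers told the fields apart only in part.

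No gene differed between older and younger CA1 at an adjusted p under 0.05. With limma on log2(TPM + 1), two-sided and with Benjamini-Hochberg adjustment over 5376 genes, 0 were called (0% of those tested) and the smallest adjusted p was 0.356. At an unadjusted p under 0.05 there were 306 genes, 5.69% of those tested, 103 of them higher and 203 lower in the older libraries. The 2 groups of 4 libraries did not overlap for 68 genes that were higher in the older group (1.26% of all compared) and 89 that were lower (1.66%). Among these, 2 higher and 16 lower genes were listed in all 4 libraries of 1 group and in none of the other. The filter admits a gene at 0 throughout a group only when its groups differ. The median difference, older minus younger, was -0.29 on the log2 scale, with 2178 genes above 0 and 3198 below. Precision was low. The median standard error was 1.26 and the median 95% interval reached 2.79 log2 units to either side of the estimate. Differences of less than that size mostly could not be told from 0. These intervals are not adjusted for the 5376 genes, and larger differences, such as that of PMM1 below, were not called either.

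Lower values and fewer genes listed moved together. Of the genes compared, 2009 were listed in more younger than older libraries and 824 in more older than younger ones. Without the 20-yr-old female the median difference was -0.50, and 423 genes were lower and 102 higher at an unadjusted p under 0.05, with 0 called by limma. The groups then did not overlap for 157 higher and 295 lower genes. For interchangeable libraries, the expected share of genes with full separation, both directions together, is at most 0.0286 with 4 against 4 libraries. With 3 against 4 it is at most 0.0571, so these counts cannot be set against the 68 and 89 above. Of the genes compared, the 68 and 89 together are close to a share of 0.0286. The 157 and 295 together are above one of 0.0571. The 20-yr-old female was left out because of its own genes and TCs listed, so these counts give no test of age. The 1559 genes listed in all 8 libraries had a median difference of -0.03, with 751 above 0 and 808 below. Among them the groups did not overlap for 41 genes higher in the older group (2.63%) and 27 lower (1.73%). A fit with the number of genes listed as a term is among the alternatives given below. Whether that number caused single differences was not tested.

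**Figure D2:**
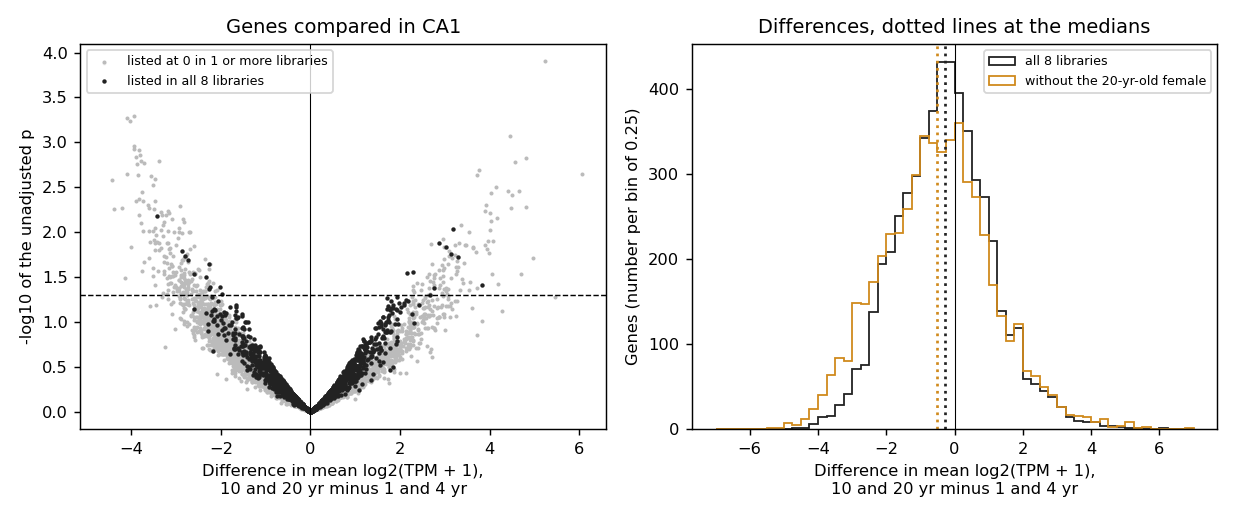
Left, each compared gene by its log2 difference in TPM + 1, older minus younger CA1, and the -log10 of its unadjusted limma p, with genes listed in all 8 libraries dark and a dashed line at an unadjusted p of 0.05; right, the distribution of these differences over all 5376 genes with all 8 libraries and without the 20-yr-old female. The median lies at -0.29 with all libraries and at -0.50 without that library, and no point passes the adjusted threshold.

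A pair of alternative fits made calls. With a prior variance that follows the mean level, an alternative chosen after seeing the data, 1 gene was called. With all 64 libraries in 1 model and the age and sex group as a random effect, 39 genes were called, 11 higher and 28 lower in older CA1. The spread in that model is drawn from regions in which these genes were mostly not listed. The median called gene was at 0 in 53 of the 56 libraries of the other regions, against 40 for all genes compared, and 37 of the 39 were at 0 in 50 or more.

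Genes with the smallest p were named by rule, 15 in each direction, and none of these passed the test. The adjusted p (limma) of the 30 genes was 0.356 to 0.70. In the higher direction the older and younger libraries did not overlap for 11 of the 13 described here. Because a gene had to be listed in 4 libraries to be compared, one at 0 throughout either group could enter only by being listed in all 4 libraries of the other, so that its groups had to differ. This holds for PMM1 and for 8 genes of the lower direction.

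PMM1, which encodes a phosphomannomutase of sugar metabolism, had the smallest p of all genes with a symbol. Its TPM was 0 in each of the 4 younger libraries and 44.8, 119, 13.8 and 23.9 in the older ones. The older libraries were all above the younger ones, and the 20-yr-old female was the lowest of them. The fitted difference was 5.24 ± 0.90 (SE, log2(TPM + 1) scale, limma adjusted p = 0.356), a value that depends on the pseudocount because the younger group is at 0, and it was 4.68 to 5.69 when any 1 library was left out. Of its CA1 tags, 1.05% lay within 500 nt of the annotated start and 73.9% in the last 10% of the gene, which spans chromosome 10, 85536059 to 85547578, on the minus strand. It was listed in 1 DG library, at 37.8 TPM.

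The next 4 genes encode proteins of neurons or secreted ones. CDK5R2, an activator of the neuronal kinase CDK5, was at 0, 0, 0 and 3.89 TPM in the younger and 36.4, 58.4, 9.0 and 49.1 TPM in the older libraries (difference 4.45 ± 0.97 SE). All its tags lay within 500 nt of the start. CNIH2, an auxiliary protein of AMPA receptors, was at 0, 0, 2.80 and 21.3 TPM against 83.5, 51.8, 21.5 and 40.5 TPM, and the highest younger and the lowest older library were nearly equal. SYNGR1, a synaptic vesicle protein, was at 0, 25.1, 0 and 19.8 TPM against 167, 75.3, 42.1 and 66.7 TPM. SEMA3B, a secreted semaphorin, was at 0, 18.2, 0 and 0 TPM against 61.0, 31.7, 48.7 and 116 TPM, with 87.9% of its tags in the last 10% of the gene. For CDK5R2 and SYNGR1 alike, every older library lay above every younger one, and the 20-yr-old female was the lowest of the older ones.

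Another 4 encode proteins of mitochondria or of the endoplasmic reticulum. NDUFA10, a subunit of respiratory complex I, was at 0, 1.81, 54.7 and 11.1 TPM in the younger and 159, 283, 76.0 and 215 TPM in the older libraries, a difference of 4.65 ± 1.25 (SE, log2 scale), with 94.6% of tags near the start. SLC25A3, the phosphate carrier of mitochondria, was at 51.0, 5.42, 0 and 0 TPM against 161, 428, 37.4 and 77.8 TPM. The groups overlapped for it, since the 20-yr-old female was below the 1-yr-old female. SIL1, an exchange factor for the chaperone BiP of the endoplasmic reticulum, was at 0, 55.9, 1.22 and 10.0 TPM against 65.9, 185, 87.0 and 128 TPM. CCPG1, a receptor for autophagy of the endoplasmic reticulum, was at 25.1, 0, 0 and 0 TPM against 47.3, 24.2, 60.9 and 71.5 TPM. Only the order of the 1-yr-old female and the 10-yr-old male kept its groups from being apart.

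The remaining 4 genes of this direction had these values. RASSF4, of the Ras association domain family, was at 6.07, 0, 0 and 0 TPM against 22.7, 18.0, 13.6 and 32.2 TPM. SNRPD3, a core protein of spliceosomal particles, was at 0, 0, 20.6 and 15.2 TPM against 147, 86.7, 58.6 and 32.5 TPM. LENG1 was at 1.48, 0, 24.6 and 14.3 TPM against 379, 69.6, 29.6 and 299.6 TPM. For these 3 genes the groups did not overlap, by a wide margin for RASSF4 and by a narrow one for LENG1. RING1, an E3 ligase of Polycomb complexes, was at 33.5, 1.15, 2.79 and 3.90 TPM against 60.8, 60.0, 39.5 and 60.0 TPM, and was the gene of these 13 with the most even values in older CA1. It was also one that was listed in all 8 libraries, and its difference was 3.18 in CA1 and 3.19 in DG.

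In the lower direction the older and younger libraries did not overlap for any of the 15 named genes. Of these, 8 were at 0 in all 4 older libraries, and the other 7 were listed in 1 or 2 of them at 1.24 to 4.88 TPM. MYEF2, a DNA-binding repressor of the myelin basic protein gene, led them. It was at 15.9, 28.9, 15.6 and 41.2 TPM in the younger and at 0 in each of the older libraries, the 20-yr-old female included. The fitted difference was -4.61 ± 0.80 (SE, log2(TPM + 1) scale, limma adjusted p = 0.356), again set partly by the pseudocount, and it was -4.79 to -4.34 when any 1 library was left out. It spans chromosome 7, 26467783 to 26504196, on the minus strand, with 61.2% of its CA1 tags within 500 nt of the start, and it was listed in none of the 56 libraries of other regions.

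Genes of signalling and cell contact in this set were IQSEC1, PDZRN3 and PCDH7. IQSEC1, an exchange factor for the small GTPase ARF6 at synapses, was at 17.6, 17.7, 28.1 and 11.7 TPM in the younger libraries and at 0, 0, 1.24 and 0 TPM in the older ones (difference -3.95 ± 0.81 SE). PDZRN3, a ubiquitin ligase with PDZ domains, was at 18.4, 4.60, 10.3 and 43.4 TPM in the younger libraries and PCDH7, a protocadherin, at 26.3, 47.3, 3.14 and 6.86 TPM, and both were at 0 in all older ones. None of the CA1 tags of these 3 genes lay within 500 nt of the annotated start.

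Genes that act on chromatin and RNA were 5 of the 15. PRMT8, an arginine methyltransferase of neurons, was at 29.4, 13.8, 22.4 and 5.75 TPM in the younger libraries, TENT4B, a poly(A) polymerase, at 21.7, 32.9, 2.27 and 17.8 TPM, and both were at 0 in all 4 older libraries. EP300, a histone acetyltransferase, was at 4.43, 41.6, 6.29 and 10.8 TPM and also at 0 in the older ones, with 86.8% of its tags in the last 10% of the gene. MNAT1, a subunit of the kinase module of TFIIH, was at 24.9, 23.2, 2.96 and 21.1 TPM and at 0 in the older libraries. SETMAR, a histone methyltransferase fused to a transposase, was at 19.5, 19.7, 34.2 and 10.6 TPM against 3.46, 0, 0 and 0 TPM, and all its tags lay within 500 nt of the start. The younger values of EP300 rested most on 1 library, the 1-yr-old male, and those of SETMAR were more even.

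Ubiquitin ligases were another 3. BTRC, the F-box protein that directs ubiquitin to phosphorylated β-catenin and IκB, was at 32.6, 44.2, 31.8 and 15.8 TPM in the younger and at 0, 4.88, 1.94 and 0 TPM in the older libraries, a difference of -3.89 ± 0.92 (SE, log2 scale), with 96.3% of tags near the start. TRIM32 was at 13.3, 9.36, 17.5 and 10.4 TPM against 0, 0, 0 and 1.60 TPM. HACE1 was at 20.7, 23.8, 6.64 and 14.1 TPM against 0, 0, 3.0 and 0 TPM, and like MYEF2 it was listed in no library of another region. The older values of all 3 were under 5 TPM.

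The last 3 were genes of metabolism and translation. AIMP1, a scaffold of the aminoacyl-tRNA synthetase complex, was at 8.70, 41.9, 15.4 and 16.5 TPM against 2.00, 0, 0 and 0 TPM. PXMP4, a membrane protein of peroxisomes, was at 30.4, 25.9, 13.4 and 4.45 TPM against 0, 0, 1.24 and 0 TPM. DHRS4, a dehydrogenase and reductase, was at 19.2, 50.1, 29.5 and 1.67 TPM against 0 in all older libraries. Its highest and lowest younger libraries differed more than those of the other 2, and DHRS4 has close copies beside it in the human genome, so its level is uncertain, since reads that matched more than 1 place were not kept.

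**Figure D3:**
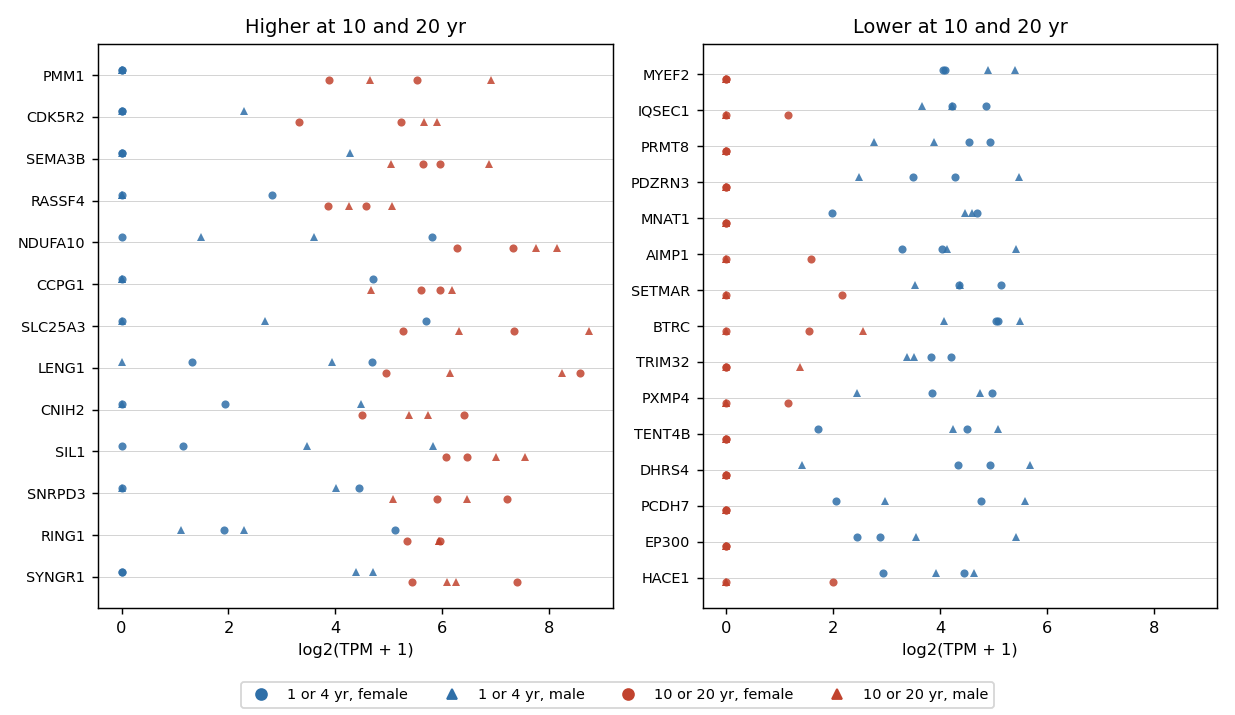
TPM of 28 of the genes named for their small p, 13 higher and 15 lower, as log2(TPM + 1), in each of the 8 CA1 libraries (discs for females and triangles for males, blue for younger and red for older). Values of genes in the lower set are at or near 0 in the older libraries, while 1 of the 13 genes in the higher set, PMM1, is at 0 in all 4 younger libraries.

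A further set was looked at because the lowest values carry the least information, and it was chosen after the values were seen. It holds genes listed in all 8 libraries whose groups did not overlap. Of those with a symbol, 28 were higher and 21 lower in the older group. Only a part of each is described, so the balance of directions below is not that of the set. With the higher level in the older group were RABL6, a Rab-like GTPase, at 121, 95.8, 147 and 99.2 TPM in the younger and 542, 431, 353 and 234 TPM in the older libraries (difference 1.70 ± 0.79 SE, 95% interval -0.04 to 3.44), and RCAN1, an inhibitor of calcineurin, at 11.5, 26.6, 91.0 and 52.7 TPM against 102, 129, 121 and 153 TPM. AGAP2, a GTPase of neurons that activates phosphoinositide 3-kinase, was at 16.1, 4.93, 1.40 and 46.9 TPM against 112, 62.5, 63.0 and 114 TPM. PYCR3, an enzyme of proline synthesis, was at 4.59, 10.8, 11.2 and 42.5 TPM against 98.2, 62.5, 44.5 and 68.9 TPM. PFDN4, a subunit of the chaperone prefoldin, was at 79.6, 75.2, 21.8 and 20.8 TPM against 128, 106, 146 and 173 TPM. The 20-yr-old female lay within the range of the other older libraries for RABL6, RCAN1 and PFDN4 and was the lowest older library for PYCR3.

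With the lower level in the older group were genes of similar abundance. CHST1, a sulfotransferase of keratan sulfate, was at 112, 247, 69.3 and 62.1 TPM in the younger and 15.8, 13.5, 24.4 and 35.4 TPM in the older libraries (difference -2.28 ± 0.86 SE, 95% interval -4.17 to -0.39). PRELID1, a lipid transfer protein of mitochondria, was at 27.2, 281, 33.9 and 71.8 TPM against 2.55, 9.95, 11.3 and 2.23 TPM. Each younger library exceeded each older one, although the younger values of PRELID1 ranged widely. PDCD2, a chaperone of a ribosomal protein, was at 135, 102, 91.5 and 101 TPM against 7.64, 2.63, 60.3 and 23.0 TPM. SMARCD3, a subunit of BAF chromatin remodelling complexes, was at 89.8, 121, 113 and 121 TPM against 4.00, 38.1, 76.0 and 6.70 TPM. OLFM1, a secreted neuronal glycoprotein, was at 490.5, 623, 259.6 and 412 TPM against 91.9, 171, 239.7 and 119 TPM. In PDCD2, SMARCD3 and OLFM1 the 20-yr-old female was the older library closest to the younger ones. COX20, an assembly factor of cytochrome c oxidase, at 338, 162, 288 and 179 TPM against 87.9, 27.2, 11.99 and 160.5 TPM, and SDF2L1, of the endoplasmic reticulum, at 50.9, 103, 75.5 and 61.2 TPM against 1.10, 10.9, 9.17 and 40.2 TPM, had the 20-yr-old male closest to the younger libraries instead. Adjusted p-values (limma) of these 12 genes were 0.652 to 0.827.

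The groups overlapped for the 5 most abundant genes described here. GPX4, which reduces lipid peroxides, had means of 28691 ± 5442 TPM (SD, n = 4) in the younger and 25575 ± 3388 TPM (n = 4) in the older libraries, with a difference of -0.16 on the log2 scale and a 95% interval of -1.85 to 1.53. HYPK, a partner of N-terminal acetylation, had 26269.6 ± 3853 and 27772 ± 6904 TPM, CLU, the secreted chaperone clusterin, 15627 ± 4359 and 18541 ± 4286 TPM, and NEURL4 16009 ± 3401 and 19229.5 ± 3431 TPM (n = 4 each). Their intervals spanned about as much as that of GPX4, so that a moderate change in these genes would also not have been seen. MBP, the myelin basic protein, had 6237 ± 1114 and 6652 ± 1394 TPM (n = 4 each), with 96.1% of its tags in the last 10% of the annotated gene. ASPHD1 was at 1728, 1927, 3122 and 1597 TPM in the younger and 5905, 4115, 3332 and 4379 TPM in the older libraries (difference 1.10 ± 0.78 SE, limma adjusted p = 0.848). Its groups did not overlap, and it was chosen after its values were seen. ARL6IP4, a splicing regulator, was at 3489, 3903, 2045 and 4536 TPM against 14108, 7465, 2878 and 7813 TPM, where the 20-yr-old female again lay among the younger libraries.

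Gene lists of cell types and pathways held 348 of the compared genes, of which 0 were called and 15 (4.31%) had an unadjusted p under 0.05, against 5.69% of all genes. Of 26 lists with at least 3 compared genes, 20 had a median difference below 0 and 6 above, with medians from -1.55 to 0.76 beside -0.29 for all genes. Without the 20-yr-old female the medians ran from -2.31 for the circadian clock to 0.91 for CA1 pyramidal neurons, beside -0.50 for all genes, and 4 lists had a median of the other sign. Below, each list is given by its count of genes above 0 with all 8 libraries, beside 40.5% of all compared genes, and by a pair of medians, the former with all 8 libraries and the latter without the 20-yr-old female.

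Among markers of CA1 pyramidal neurons, 4 of 5 compared genes were above 0 (medians 0.69 and 0.91). Of all compared genes, 1.26% were higher in the older group without overlap, and 1 of these 5 was. This was GRIA1, at 68.6, 123, 105 and 94.95 TPM in the younger and 369.9, 208, 175 and 128 TPM in the older libraries (difference 1.08 ± 0.80 SE, 95% interval -0.69 to 2.86, limma adjusted p = 0.848). Its 10-yr-old libraries were the highest. In DG, where 5 of 8 libraries listed GRIA1, its difference was larger, at 5.21. Limma did not tell the differences in CA1 and DG apart (adjusted p = 0.776). HPCA was at 356, 194, 375 and 713 TPM against 791, 419, 661 and 1076 TPM, and its groups overlapped. NEUROD6 was at 166, 349, 371 and 337 TPM against 94.2, 221, 578 and 122 TPM, with the 20-yr-old female the highest of all 8 and the other older libraries mostly low. ZBTB20, a factor that specifies CA1 neurons, was at 4.27, 21.0, 0 and 49.0 TPM against 26.0, 27.4, 50.8 and 0 TPM, and WFS1, of the endoplasmic reticulum, was at 0, 25.5, 0 and 3.16 TPM against 0, 69.1, 0 and 2.23 TPM. Neither showed an order by age. The summed level of the list was 945 to 1468 TPM in the older and 601 to 1202 TPM in the younger libraries. Dentate granule cell markers had 2 of 4 genes above 0 (medians -0.21 and -0.46), and their sum was 93.2 to 267 against 30.7 to 144 TPM. The 20-yr-old female had the highest sum of both lists.

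Glutamatergic neuron and synapse genes went both ways. In the glutamatergic list 6 of 13 were above 0 (medians -0.21 and -0.18) and in the list of synaptic vesicle release 8 of 15 (medians 0.05 and -0.24). DLG4, the postsynaptic scaffold PSD-95, was at 34.1, 22.8, 39.6 and 28.2 TPM in the younger and 234, 108, 67.4 and 41.8 TPM in the older libraries, without overlap (difference 1.56 ± 0.86 SE, adjusted p = 0.827). Only 0.184% of its CA1 tags lay within 500 nt of the annotated start. BAIAP2, a scaffold of dendritic spines, was at 3.28, 39.9, 0 and 0 TPM against 103, 75.8, 3.70 and 22.0 TPM. GRIN1, the obligatory subunit of NMDA receptors, was at 25.6, 53.1, 13.6 and 16.3 TPM against 2.18, 2.81, 32.6 and 0 TPM, and HOMER1, another postsynaptic scaffold, at 24.9, 111, 13.4 and 7.98 TPM against 0, 27.2, 3.35 and 2.87 TPM. The first pair had higher and the second pair lower means in the older group, and the groups of BAIAP2, GRIN1 and HOMER1 overlapped. In the list of axon growth and the cytoskeleton 7 of 15 genes were above 0 (medians -0.12 and 0.03). NEFH, the heavy neurofilament of large axons, was at 0, 0, 0 and 2.78 TPM against 66.8, 2.44, 42.5 and 2.23 TPM, with the female older libraries high and the male ones at the younger level.

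Genes of calmodulin and calcium signalling had 6 of 17 above 0 (medians -0.56 and -0.94), while their summed level was 1663 to 2940 TPM in the older and 1086 to 1605 TPM in the younger libraries, without overlap. The medians and the sum thus had opposite directions. The separation of the sums depends on single members, since they overlap once the TPM of either PPP1R1B or CAMKV is taken out. PPP1R1B, the phosphatase inhibitor DARPP-32, was at 255, 159.5, 18.7 and 280.4 TPM in the younger and 548, 568, 502 and 359 TPM in the older libraries, and CAMKV, a kinase-like protein bound by calmodulin, at 96.2, 9.20, 89.6 and 36.4 TPM against 169, 143, 104 and 135 TPM. Both had groups that did not overlap, with differences of 1.99 ± 1.02 and 1.68 ± 0.95 (SE, log2 scale) and an adjusted p (limma) of 0.827. PPP3CA, the catalytic subunit of calcineurin, ran the other way, at 33.5, 15.8, 14.0 and 13.5 TPM against 0, 2.81, 7.77 and 0 TPM (difference -2.97 ± 0.98 SE, adjusted p = 0.749). Set beside RCAN1, the calcineurin inhibitor described above, both were measured at low to moderate levels, and their relation was not tested.

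GABAergic neuron markers had 3 of 9 genes above 0 (medians -1.25 and -1.43), and their sum was 257 to 439.9 TPM in the older and 386 to 1172 TPM in the younger libraries. SST, the peptide somatostatin of a class of interneurons, was at 645, 1035, 418 and 233 TPM in the younger and 439, 170.2, 186 and 191 TPM in the older libraries (difference -1.15 ± 0.86 SE, 95% interval -3.05 to 0.76). LHX6, a transcription factor of the same lineage, was at 27.2, 16.9, 0 and 6.68 TPM against 0, 0, 3.53 and 0 TPM. The 1-yr-old libraries were the highest for both, and the groups overlapped. Immature neuron and progenitor markers had 1 of 7 genes above 0 (medians -0.75 and -1.11). STMN1, a tubulin regulator of growing neurites, was at 321, 115, 80.4 and 87.2 TPM against 11.8, 90.1, 106 and 68.9 TPM, and SOX4, a factor of young neurons, at 119, 11.8, 57.7 and 28.7 TPM against 1.27, 115, 17.8 and 0 TPM. Of immediate-early genes, which neuronal activity induces, 1 of 3 was above 0 (medians -1.48 and -1.13), and the sum over the list was 106 to 157 against 148 to 358 TPM. ARC, one of them, was at 129.8, 186, 60.6 and 95.9 TPM in the younger and 71.0, 67.0, 18.2 and 24.9 TPM in the older libraries. Its 10-yr-old libraries lay above the 4-yr-old female.

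Glial lists differed among themselves. Astrocyte markers had 6 of 11 genes above 0 (medians 0.25 and 0.19) and those of oligodendrocytes and myelin 6 of 13 (medians -0.03 and -0.09). Those of oligodendrocyte precursors had 2 of 3 above 0 (medians 0.76 and 0.0992) and those of microglia 2 of 7 (medians -0.32 and -0.96), so that these 2 short lists rested most on the 20-yr-old female. The astrocyte list held both directions. AQP4, the water channel of astrocyte endfeet, was at 16.9, 4.93, 46.1 and 6.86 TPM in the younger and 0, 0, 10.4 and 0 TPM in the older libraries (difference -2.94 ± 1.12 SE, adjusted p = 0.827), and ALDH1L1, an astrocyte enzyme of folate metabolism, was at 0, 4.60, 14.5 and 97.5 TPM against 49.9, 37.5, 89.1 and 40.8 TPM. Most tags of both genes, 89.5% and 93.6%, lay in the last 10% of the gene. APOE, the lipid carrier made by astrocytes, was at 247, 378, 128 and 254 TPM against 914, 495, 222 and 315 TPM. MAL, a protein of myelin membranes, was at 26.9, 9.03, 45.8 and 66.4 TPM against 11.8, 5.81, 9.88 and 8.30 TPM. Summed levels overlapped for all these lists, for instance 14769 to 23798 TPM in the older and 14084 to 22899 TPM in the younger libraries for astrocytes and 6111 to 9076 against 5509 to 8266 TPM for oligodendrocytes.

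Markers of other cells that a CA1 dissection could hold were also examined. Endothelial and pericyte markers had 0 of 4 genes above 0 (medians -1.34 and -2.12), with a sum of 158 to 449 TPM in the older and 378 to 891 TPM in the younger libraries. ITM2A was at 60.9, 20.0, 86.8 and 28.9 TPM against 0, 33.0, 40.2 and 0 TPM. Of the markers of choroid plexus, ependyma and meninges 2 were compared, 1 on either side of 0, and their sum was 18.8 to 101 against 36.4 to 108 TPM. FOLR1, the folate receptor of choroid plexus, was at 4.76, 19.1, 48.8 and 18.2 TPM against 0, 4.32, 3.88 and 0 TPM, without overlap. Blood markers were listed for 2 genes, neither of them compared, with sums of 0 to 6.17 TPM in the older and 0 to 62.4 TPM in the younger libraries. The part of such cells in the differences of other genes was not tested. Genes of complement, antigen presentation and the interferon response had 6 of 8 above 0 (medians 0.35 and 0.40). CD74, the invariant chain of MHC class II, was at 8.69, 0, 21.8 and 8.16 TPM in the younger and 97.2, 57.0, 17.8 and 1.28 TPM in the older libraries, so that the 10-yr-old libraries were high and the 20-yr-old ones were not.

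**Figure D4:**
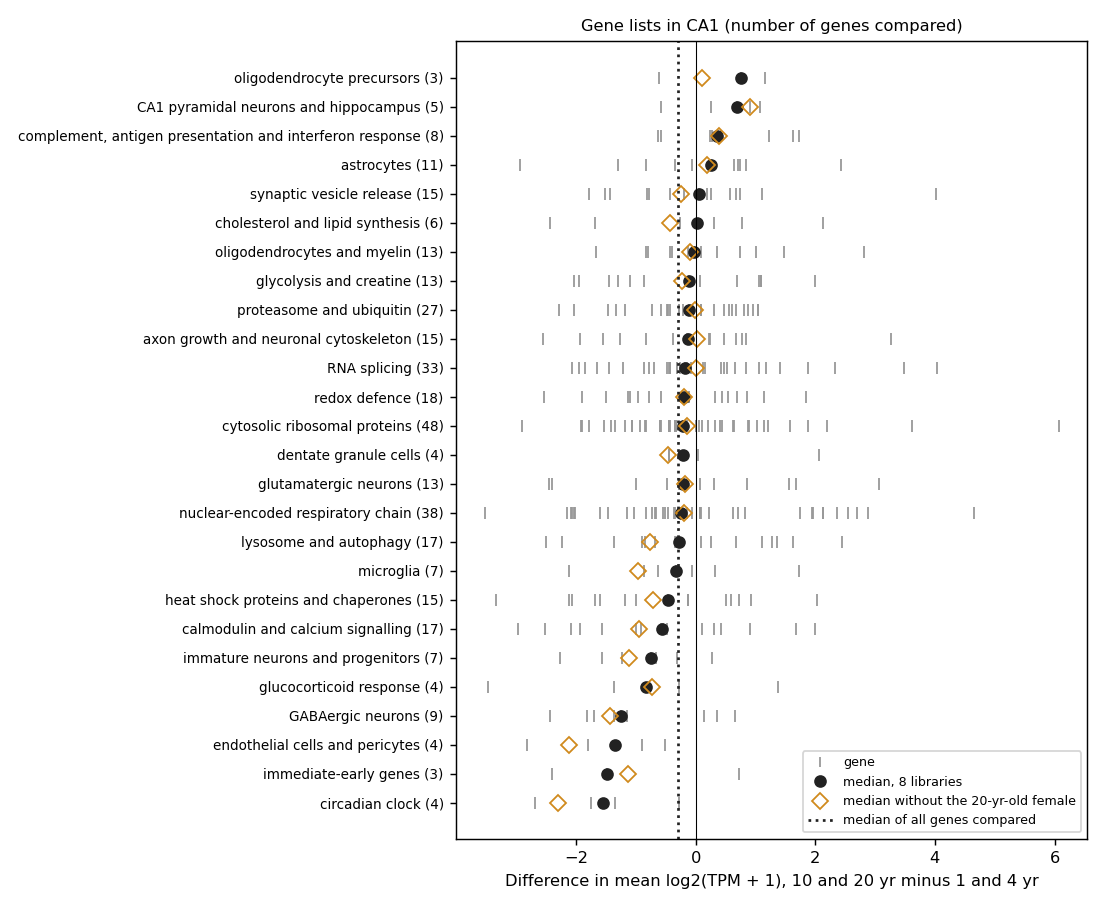
Log2 differences in TPM + 1, older minus younger CA1, for the compared genes of 26 lists (ticks), with each list's median for all 8 libraries (discs) and without the 20-yr-old female (diamonds), and the median of all genes as a dotted line. Medians run from -1.55 for the circadian clock to 0.76 for oligodendrocyte precursors, and genes lie on both sides of 0 in all lists but those of endothelial cells and the clock.

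No gene of protein folding or stress was called. Of heat shock proteins and chaperones 5 of 15 were above 0 (medians -0.46 and -0.71). DNAJA1, a J-domain partner of HSP70, was at 266, 300.5, 456 and 190.3 TPM in the younger and 87.0, 115, 13.2 and 157 TPM in the older libraries (difference -2.06 ± 0.97 SE, adjusted p = 0.827), and HSPH1, an HSP110 that recycles HSP70, was at 26.1, 23.0, 59.0 and 45.8 TPM against 0, 7.51, 20.1 and 0 TPM. Neither gene's groups overlapped. The summed level of the list nevertheless overlapped, at 1306 to 2255 against 1220.0 to 2015 TPM. In the proteasome and ubiquitin list 13 of 27 genes were above 0 (medians -0.12 and -0.0047), in redox defence 7 of 18 (-0.19 in both versions) and in lysosome and autophagy 8 of 17 (medians -0.27 and -0.77). PRDX3, a peroxiredoxin of mitochondria, was at 27.7, 8.87, 23.6 and 44.7 TPM against 0, 5.25, 44.1 and 0 TPM, and CTSL, the lysosomal protease cathepsin L, at 52.5, 56.4, 111 and 13.9 TPM against 4.73, 0, 32.3 and 24.9 TPM. In both, the 20-yr-old female was the highest older library.

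Energy and growth lists held genes on both sides of 0. The nuclear-encoded respiratory chain had 17 of 38 genes above 0 (medians -0.24 and -0.19), and its members at the edges were NDUFA10, described above, and NDUFS4, also of complex I, at 11.7, 67.7, 3.49 and 30.6 TPM in the younger and 0, 0, 6.17 and 0 TPM in the older libraries. Glycolysis and creatine genes had 6 of 13 above 0 (medians -0.10 and -0.23), among them ENO2, the neuronal enolase, at 71.4, 99.9, 61.3 and 68.4 TPM against 29.3, 12.9, 39.9 and 31.9 TPM, without overlap (difference -1.45 ± 0.81 SE, adjusted p = 0.827). Cytosolic ribosomal protein genes had 21 of 48 above 0 (medians -0.20 and -0.14). RPLP1, a stalk protein of the large subunit, was at 848, 999.8, 578 and 1267 TPM against 216, 287, 429.5 and 336 TPM, also without overlap, and RPL17 was at 27.1, 69.0, 14.0 and 50.5 TPM against 0, 2.25, 3.0 and 36.4 TPM. RNA splicing genes had 14 of 33 above 0 (medians -0.17 and 0.01), with a sum of 11339 to 20276 against 11133 to 12590 TPM. Without the 20-yr-old female the older sums were 14641 to 20276 TPM. A sum follows its most abundant members, and which genes carried this one was not tested. Cholesterol and lipid synthesis had 3 of 6 above 0 (medians 0.03 and -0.43). FADS1, a fatty acid desaturase, was at 9.35, 32.2, 16.9 and 12.6 TPM against 11.3, 0, 7.05 and 0 TPM. None of the mitochondrially encoded genes could be matched by symbol.

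Clock and hormone genes were few. All 4 compared circadian clock genes were below 0 (medians -1.55 and -2.31), but the sum over the 14 clock genes listed was 10.5 to 89.6 TPM in the older and 50.7 to 86.4 TPM in the younger libraries. PER3, a period gene, was at 3.28, 6.24, 2.10 and 17.1 TPM in the younger libraries and at 0 in all older ones. It could thus enter the comparison only with groups that differed. Of 4 compared genes of the glucocorticoid response 1 was above 0 (medians -0.82 and -0.72). NFKBIA, the NF-κB inhibitor IκBα, was at 23.5, 57.0, 25.2 and 5.38 TPM against 0, 0, 14.8 and 0 TPM, so that it was listed in older CA1 in the 20-yr-old female alone.

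Steps between neighbouring ages were compared with 2 libraries at each age. Limma called 0 of 5376 genes (0%) for 4 against 1 yr, 0 for 10 against 4 yr and 0 for 20 against 10 yr. At an unadjusted p under 0.05 there were 277, 513 and 499 of the 5376 genes, where a share of 0.05 is expected without any difference. The first count lies near that share and the others lie above it. The step from 4 to 10 yr is the one that crosses the 2 age classes. The step from 10 to 20 yr, within the older class, had about as many genes. These counts are not given without the 20-yr-old female, since her age would then have no second library. PMM1 had a mean of 0 TPM at 1 and at 4 yr, 81.9 TPM at 10 yr and 18.8 TPM at 20 yr. MYEF2 was at 0 at both older ages.

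The difference in CA1 was set against that in DG, the other hippocampal field, as the difference between the libraries of the same age and sex. Limma called 0 of 5376 genes (0%), with 311 at an unadjusted p under 0.05 and a smallest adjusted p of 0.321. Without the 20-yr-old female it also called 0, with 454 at an unadjusted p under 0.05 and a smallest adjusted p of 0.434. DG listed fewer genes. Between 41.8% and 79.5% of the genes compared were at 0 in a DG library. The leading genes differed more in DG than in CA1. ATPAF2, an assembly factor of the mitochondrial ATP synthase, was at 0 TPM in the 4 younger DG libraries and at 33.4, 123, 255 and 523 TPM in the older ones, while CA1 had 11.3, 0, 7.51 and 10.9 TPM in the younger and 0, 0, 24.0 and 0 TPM in the older libraries. The difference between the 2 regions was -8.68 ± 1.72 (SE, log2 scale). SEC62, of the translocon of the endoplasmic reticulum, was at 0, 0, 2.06 and 0 TPM in younger and 115, 121, 300.3 and 212 TPM in older DG, but at 125, 283, 113 and 242 TPM in younger and 17.6, 97.4, 233 and 333 TPM in older CA1. BOD1L1 was at 0 in younger DG and at 0, 90.7, 109.8 and 976 TPM in older DG, against 90.8, 165, 19.4 and 54.9 TPM in younger and 0, 33.4, 67.6 and 41.5 TPM in older CA1. Each of these 3 genes had a higher mean in older than in younger DG and a lower one in older than in younger CA1, with a limma adjusted p of 0.321.

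In the other direction, PLPPR3, a membrane protein of growing axons, was at 415, 176, 51.9 and 0 TPM in younger DG and at 0 in older DG, against 7.06, 0, 4.72 and 0 TPM in younger and 28.4, 7.51, 54.5 and 6.06 TPM in older CA1 (difference 8.24 ± 1.83 SE, adjusted p = 0.321). AAMP and YEATS2, a subunit of a histone acetyltransferase complex, followed with differences of 8.07 ± 2.26 and 6.72 ± 1.95 (SE, adjusted p = 0.654 for both). AAMP was at 0, 2.96, 0 and 0 TPM in younger and 0, 74.5, 6.35 and 90.6 TPM in older CA1. YEATS2 was low in CA1 throughout, at no more than 19.1 TPM.

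Against the mean of the other 7 regions limma also called 0 of 5376 genes (0%). There were 275 at an unadjusted p under 0.05, and the smallest adjusted p was 0.638. Without the 20-yr-old female limma called 0, with 391 and 0.228 in turn. PMM1 was first on the higher side with a difference of differences of 5.28 ± 1.21 (SE, log2 scale), followed by SLC25A3 (6.15 ± 1.48) and CDK5R2 (5.64 ± 1.42). On the lower side the leading genes included MYEF2 (-4.61 ± 1.19) and ZC3H7B (-5.37 ± 1.44), which was at 88.3, 133, 79.3 and 32.4 TPM in younger and 0, 0, 23.1 and 10.5 TPM in older CA1. BTRC, at -3.92 ± 1.21, had an adjusted p of 0.896, and the others one of 0.638. The other regions listed 545 to 4942 genes per library, so that a gene at 0 there need not be absent. MYEF2 was at 0 in all 56 of those libraries, so that its value here only repeats its difference in CA1. PMM1 was at 0 in 53 of the 56, and both had already been named for their small p in CA1.

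**Figure D5:**
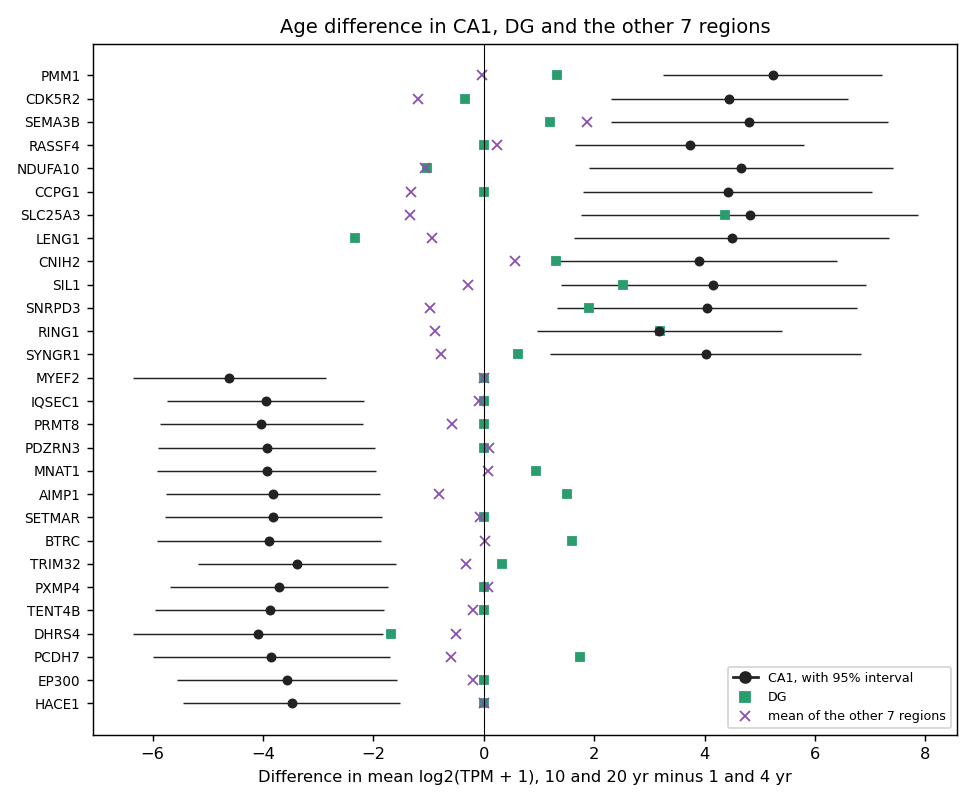
Log2 differences in TPM + 1, older minus younger, for 28 named genes in CA1 (discs with 95% intervals), in DG (squares) and as the mean of the other 7 regions (crosses). The CA1 intervals exclude 0 for these genes, which were chosen for their small p, while those of DG run from -2.33 for LENG1 to 4.38 for SLC25A3 and the means of the other regions from -1.34 to 1.88.

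Start positions within genes were compared for 329 genes with at least 2 TCs that had 1 TPM in 4 of the 8 libraries, and diffSplice of limma called 1, CCDC142 (0.304% of those tested), with 16 at an unadjusted p under 0.05. Its adjusted p was 0.0215. Without the 20-yr-old female 5 genes were called. In all 4 younger libraries the main TC of CCDC142 was at position 74703340 of chromosome 13, with 514, 212, 207 and 224 TPM. This lies 10205 nt inside a gene of 10891 nt, near its annotated end. The 4 older libraries had no TC at that position. They had 149, 317, 219 and 260.4 TPM at positions 12, 4, 3 and 3 nt away, so that the called difference was one of a few nucleotides in where the cluster was placed. Once positions under 20 nt apart were joined, the unadjusted p of CCDC142 was 0.56. In that version 3 of 1051 genes were called, none of them with a symbol. For 1 of these, on chromosome 8, the younger libraries had 111, 331, 194 and 67.1 TPM at 60 nt before the start and 0 TPM at 29 nt before it, where the older ones had 136, 107, 102 and 25.2 TPM. The older libraries had 0, 76.0, 0 and 5.43 TPM at the position of the younger ones, so that 2 of the 4 also used it.

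Libraries of 1 age group also differed in where TCs were placed. For genes of at least 20 TPM, the highest position was the identical nucleotide in 22.5% to 36.9% of genes for pairs of older libraries (median 27.1%), in 25.1% to 33.3% for pairs of younger libraries (median 28.0%) and in 21.0% to 44.0% for pairs across the groups (median 25.6%). The highest values within the older group and across the groups were of pairs with the 20-yr-old female. Without this library the ranges were 22.5% to 24.1% within the older group and 21.0% to 30.2% across. Pearson correlations of log2(TPM + 1) over the compared genes were 0.47 to 0.53 within the older, 0.49 to 0.56 within the younger and 0.45 to 0.60 across the groups, with genes as the points. Without the 20-yr-old female they were 0.47 to 0.48 within the older group and 0.45 to 0.50 across, so that of the 3 kinds of pair the younger ones were the most alike by median, at 0.52 against 0.48 and 0.48. The libraries differed in depth, and its part in these values was not tested.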

How the data were processed

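CAGE-seq values of 64 libraries were used, 8 of them from CA1. The authors filtered the reads, aligned them to MMUL 1.0 with TopHat2, kept uniquely mapped reads, clustered their 5′ ends into TCs and deposited the signal of each TC as RPM (called TPM), tags relative to all tags of a library, without correction for length. Groups follow the sample labels. TPM was summed per gene, filtered at 1 TPM in 4 of 8 CA1 libraries and compared as log2(TPM + 1) with limma 3.58.1 (R 4.3.3), two-sided, with Benjamini-Hochberg adjustment and a threshold of 0.05. TC use was tested with diffSplice of limma, and library measures with exact permutations (SciPy 1.17.1). Python 3.11.15, NumPy 2.4.6, pandas 2.3.3 and Matplotlib 3.10.9 were also used. The fit was tested on simulated data. Depth was estimated from the steps of values under 3 TPM (92.6% to 97.7% whole within 0.0051 TPM).

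Symbols were known for 4223 of 5376 genes. The rule took, of genes with a symbol, the 15 of smallest unadjusted p in each direction (9 genes without one were passed over), up to 4 members of each list, the 10 most abundant genes, the CA1 markers and the 3 leading genes each way against DG, the other regions and in TC use. The results of 2 genes the rule took are not reported here. Members and lists were chosen with earlier results of these data known. The 29 lists cover cell types, synapses, signalling, stress, metabolism, translation, splicing, clock, hormone response and blood.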

Additional observations from a re-analysis of the deposited data

Results flagged for a closer look

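In groups of 4 libraries, the highest or lowest value was examined for a gap to its nearest neighbour above the 95% critical value of Dixon's test. Of 186 such groups, 38 had one. Chance flags about 1 in 20 groups, and values tied at 0 make the gap common here, since a group with 3 libraries at 0 and 1 above always has it.

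The library of the 20-yr-old female stood out by its 8143 genes listed and its 23670 TCs. Among genes it also stood out in older CA1 for GRIN1 (32.6 TPM), AQP4 (10.4 TPM), NFKBIA (14.8 TPM), PRDX3 (44.1 TPM), ATPAF2 (24.0 TPM), NDUFS4 (6.17 TPM), LHX6 (3.53 TPM), HACE1 (3.0 TPM), IQSEC1 and PXMP4 (1.24 TPM each), where it was high, and for RING1 (39.5 TPM), where it was low. Without it the median difference over all genes was -0.50 in place of -0.29.

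Other older libraries stood out for SST (10-yr-old female, 439 TPM), AIMP1 (10-yr-old female, 2.00 TPM), SETMAR (10-yr-old female, 3.46 TPM), WFS1 (10-yr-old male, 69.1 TPM), HOMER1 (10-yr-old male, 27.2 TPM), SOX4 (10-yr-old male, 115 TPM), TRIM32 (20-yr-old male, 1.60 TPM) and RPL17 (20-yr-old male, 36.4 TPM).

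In younger CA1 the 1-yr-old female stood out for RASSF4 (6.07 TPM), CCPG1 (25.1 TPM), SLC25A3 (51.0 TPM), RING1 (33.5 TPM), PPP3CA (33.5 TPM) and STMN1 (321 TPM), all high, and for NEUROD6 (166 TPM), low. The 1-yr-old male was high for SEMA3B (18.2 TPM), EP300 (41.6 TPM), WFS1 (25.5 TPM), BAIAP2 (39.9 TPM), HOMER1 (111 TPM) and AAMP (2.96 TPM), and the 4-yr-old male for CDK5R2 (3.89 TPM), CNIH2 (21.3 TPM), ALDH1L1 (97.5 TPM) and NEFH (2.78 TPM).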

How the results depend on the processing

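Between older and younger CA1, limma called no gene under any of the scalings, pseudocounts, filters or sex terms run or without any 1 library, and the smallest adjusted p over these was 0.0929 to 1. The exceptions were the model of all 64 libraries (11 higher and 28 lower) and the variance that follows the mean level (1 higher). At an unadjusted p under 0.05 there were 165 higher and 345 lower genes with no filter, 161 higher after quantile normalization, 127 lower with TCs within 500 nt of the start, 104 lower at 1 TPM in 6 of 8 libraries, 130 lower with the number of genes listed as a term, 87 lower in females only, 433 lower in males only, 320 lower with all 64 libraries, and 54 higher and 46 lower for genes listed in all 8 libraries, a setting added after seeing the data. Groups without overlap numbered 30 higher near the start, 57 lower at 6 of 8 libraries, 754 and 758 in females only, 655 and 1175 in males only, and 41 and 27 (2.63% and 1.73%) for genes listed in all 8. These counts cannot be compared across settings or with those that leave out 1 library. Groups of fewer libraries, as in 1 sex, separate more readily, and the filters change the number of genes. Leaving out 1 library gave 158 to 423 lower genes at an unadjusted p under 0.05, 105 to 159 higher and 139 to 295 lower genes without overlap, and 0 or 1 gene for CA1 against DG (1 without the 1-yr-old male). The median difference over all genes moved to -0.09 with a pseudocount of 10 TPM and -0.08 after quantile normalization. For 20 against 10 yr a pseudocount of 10 TPM called 1 gene, lower. TC use gave 2 calls with that pseudocount, 3 with joined positions, 0 at 6 of 8 libraries and 0 to 5 without 1 library (5 without the 20-yr-old female). The causes were not tested.

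Of 1950 values of named genes under alternatives, 23 changed sign. HYPK turned to -0.0894 (quantile), -0.0292 (rescaled), -0.997 (near the start), -0.12 (genes listed as a term) and -0.34 (females), CLU to -0.28 (males), MBP to -1.68 (near the start), -0.29 (females) and -0.63 (highest TC), ARL6IP4 to -2.15 and HPCA to -0.27 (near the start), ZBTB20 to -2.64 (males), WFS1 to -0.19 (genes listed as a term) and SEC62 to 0.90 (near the start). Without 1 library HYPK ranged from -0.0628 to 0.25, MBP from -0.0476 to 0.21, ZBTB20 from -0.35 to 1.97, WFS1 from -1.13 to 1.27 and SEC62 from -1.23 to 0.15. The differences in library measures ranged from -1588 to -142 genes listed, from -4420 to 1136 TCs, from -5.48 to 1.27 percentage points for genes with over 1 TC, from -1.89 to 0.64 for TPM near the start, from -1.06 to 0.51 for TPM in the last 10% of genes and from -0.98 to 0.11 for mitochondrial TPM.

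No paired analysis was possible because, for older against younger CA1, the labels give no replicate numbers and libraries of different ages come from different animals. CA1 was compared with other regions on differences within each age and sex, which is a pairing of the libraries. The planned tests on tag counts were not run, since whole tags could not be recovered for every library. Depth limits genes under 1 TPM, and 4 libraries a group limit all differences.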
